A study of Rattus norvegicus with 6 samples.

Results

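The genes described here are 10 parts and products of the NF-kB pathway, chosen by gene symbol from the 21857 rows of the deposited count table, and all 10 were found. They are the Rel family subunits Nfkb1, Nfkb2, Rela and Relb, the inhibitors and feedback genes Nfkbia, Nfkbie, Tnfaip3 and Birc3, and the adhesion molecules Icam1 and Vcam1. RNA was sequenced from adipose-derived mesenchymal stem cells of Sprague Dawley rats, stromal cells grown out of fat tissue. Cells of the BCAA group (3 libraries) received the branched chain amino acids leucine, isoleucine and valine (BCAA) at 3.432 mM for 12 h, and cells of the vehicle group (3 libraries) received vehicle for 12 h. Both groups were in BCAA-free high-glucose DMEM with serum and in the presence of 100 µM hydrogen peroxide, an oxidant. No cells without hydrogen peroxide were analysed here, and nothing in the labels ties replicates to separate animals or cultures, so a p-value here reflects library-to-library spread that may be technical in part.

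NF-kB is a family of dimeric transcription factors that is held in the cytoplasm by inhibitor proteins of the IkB family. Signals from cytokine receptors, pattern recognition receptors and, in many cell types, oxidants lead to phosphorylation and breakdown of the IkB proteins, and the dimers then enter the nucleus. Among the genes they switch on are their own inhibitors, which close a feedback loop, and, in stromal and endothelial cells, the adhesion molecules that leukocytes bind. The comparison below asks whether the transcripts of this circuit differed between cells with and without added BCAA.

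Library totals ran from 12725344 to 15739731 counts, and each of the 10 genes had between 407 and 12131 counts in every library. Vehicle replicate 1 stood apart from the other libraries on the first principal component of log2 CPM (read counts scaled to a common library size), with a score of 26.8, while the other 5 libraries lay between -15.2 and 0.538. Results are therefore given with and without it. The mesenchymal stromal markers were abundant, with a summed level of 14650 to 15180 CPM in BCAA libraries and 14290 to 16000 CPM in vehicle libraries. The collagen gene Col1a1 and the proteoglycan gene Dcn were the highest of them. Of 9 endothelial markers in the table, 6 had at most 10 counts in every library, among them Cdh5 (0 to 3 counts) and Vwf (4 to 7 counts). The other 3 were above that level, with Egfl7 at an average of 16.9 CPM in BCAA libraries and 20.2 CPM in vehicle libraries, and Tie1 at 4.55 CPM in BCAA libraries and 3.62 CPM in vehicle libraries.

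The stretches around the start sites of most of these genes hold the kappa-B consensus, the sequence to which NF-kB dimers bind. RefSeq windows of the assembly GRCr8, from 250 bases before to 50 bases after the annotated start, were held for 8 of the 10 genes (not for Relb and Birc3). The consensus, searched on both strands, was found in 6 of these 8 windows (Nfkb1, Nfkb2, Nfkbia, Nfkbie, Tnfaip3 and Vcam1) and in 7.51% of the 33469 windows in the whole table. A looser form with any base at the first position was found in 7 of the 8, Icam1 being the added gene, and in 25.7% of all windows. Every match of the consensus is also a match of the looser form, and some neighbouring matches overlap while others do not. Rela had no match of either form, which says only that these letters are not in that window. Most of these genes are textbook NF-kB targets, so matches in them are a description and not an independent result. The 250 bases before the start are shown for the adhesion genes and for the feedback genes Nfkbia and Tnfaip3, 5′ to 3′ on the strand of the gene, with matches of the looser form, which contain those of the consensus, in capitals.
Icam1 (chr8:27829595-27829844, plus strand): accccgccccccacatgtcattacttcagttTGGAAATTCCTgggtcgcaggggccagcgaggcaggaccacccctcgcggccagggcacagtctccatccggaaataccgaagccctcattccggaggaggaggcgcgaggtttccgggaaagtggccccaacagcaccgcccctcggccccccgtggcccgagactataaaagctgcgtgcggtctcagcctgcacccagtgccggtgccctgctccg
Vcam1 (chr2:206742784-206743033, minus strand): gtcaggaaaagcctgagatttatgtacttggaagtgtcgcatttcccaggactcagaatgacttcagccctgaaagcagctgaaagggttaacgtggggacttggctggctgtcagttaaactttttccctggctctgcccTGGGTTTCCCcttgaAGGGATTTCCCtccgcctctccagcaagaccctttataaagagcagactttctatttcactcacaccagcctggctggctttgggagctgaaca
Nfkbia (chr6:78597073-78597322, minus strand): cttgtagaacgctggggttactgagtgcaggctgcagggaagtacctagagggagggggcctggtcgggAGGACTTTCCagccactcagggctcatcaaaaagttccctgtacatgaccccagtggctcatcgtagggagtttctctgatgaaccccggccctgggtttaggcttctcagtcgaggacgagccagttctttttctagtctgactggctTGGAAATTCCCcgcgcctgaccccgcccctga
Tnfaip3 (chr1:15543980-15544229, minus strand): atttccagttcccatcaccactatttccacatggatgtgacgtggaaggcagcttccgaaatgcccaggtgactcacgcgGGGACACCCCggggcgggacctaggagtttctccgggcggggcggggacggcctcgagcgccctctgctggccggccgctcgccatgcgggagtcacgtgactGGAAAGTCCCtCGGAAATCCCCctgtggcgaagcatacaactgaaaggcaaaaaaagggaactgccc
In Icam1 the match began 219 bases before the start and in Vcam1 the consensus began 93 bases before it. Nfkbia had a consensus match that began 31 bases before the start. Tnfaip3 had 3, which began 170, 67 and 55 bases before the start.

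For the subunit genes and the second inhibitor a short window around the consensus match is shown, since NF-kB is known to act on the genes of its own subunits.
Nfkb1 (chr2:226805440-226805469, minus strand): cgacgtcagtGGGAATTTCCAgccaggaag
Nfkb2 (chr1:255108344-255108373, plus strand): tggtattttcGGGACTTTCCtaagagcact
Nfkbie (chr9:22948017-22948046, minus strand): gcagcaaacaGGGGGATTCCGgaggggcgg
The match in Nfkb1 began at base 4 after the start, that in Nfkb2 20 bases before it and that in Nfkbie 164 bases before it.

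None of the 10 genes passed an adjusted p of 0.05 between BCAA and vehicle (edgeR's quasi-likelihood test, Benjamini-Hochberg adjustment over 12298 genes), where 0.228% of all genes tested did, and DESeq2 called none of them either (1.03% of all genes). In sign, 8 of the 10 were lower with BCAA and 2, Rela and Birc3, were higher, each with a log2 fold change (BCAA over vehicle) of 0.02. Of all genes tested, 49.2% were lower in sign. The median log2 fold change of the 10 was -0.13, and that of all genes tested was 0.00. At an unadjusted p under 0.05, edgeR gave 4 genes, Icam1, Nfkb1, Vcam1 and Tnfaip3, all of them lower with BCAA (5.84% of all genes were lower at that p), and DESeq2 gave 3, Icam1, Nfkb1 and Vcam1 (4.83% of all genes). The edgeR count was lower in several other fits. It was 1, Icam1, without BCAA replicate 2 (4.29% of all genes), without BCAA replicate 3 (4.48%) and without scaling factors (3.85%). It was 2 without BCAA replicate 1 (4.01%) or vehicle replicate 3 (5.11%) and 3 without vehicle replicate 2 (4.88%). There was no overlap between BCAA and vehicle libraries for Icam1, Nfkb1 and Vcam1, each lower with BCAA, as for 8.76% of all genes.

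**Figure D1:**
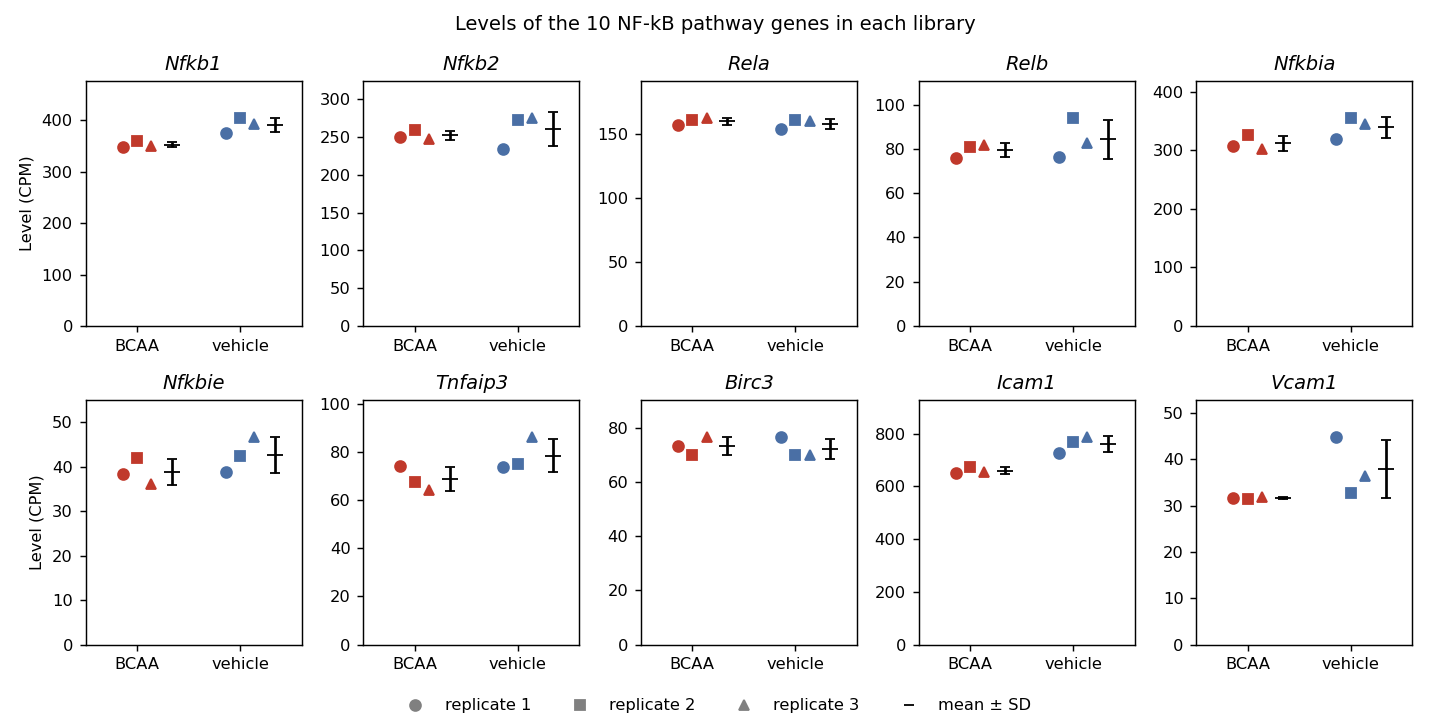
Level of each of the 10 genes in CPM (vertical axis, from 0) in the 3 BCAA libraries and the 3 vehicle libraries, with marker shapes for replicate numbers and the mean ± SD beside them. The BCAA libraries lay below all vehicle libraries for Icam1, Nfkb1 and Vcam1, and the groups overlapped for the other 7 genes.

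Icam1 encodes the intercellular adhesion molecule that leukocytes bind through their beta-2 integrins. Its level was 650.4, 675 and 654 CPM in BCAA replicates 1 to 3, against 727, 770.0 and 788 CPM in vehicle replicates 1 to 3. Every BCAA library thus lay below every vehicle library. The level was 13.4% lower with BCAA (log2 fold change -0.21, SE 0.06, 95% interval -0.34 to -0.08; edgeR unadjusted p = 0.0039, adjusted p = 0.18). The gene had the smallest p of the 10, and its log2 fold change ran from -0.24 to -0.18 over the alternatives tried.

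Vcam1 encodes the vascular cell adhesion molecule, bound by the alpha-4 integrins of leukocytes. It was measured at 31.6, 31.4 and 31.9 CPM in BCAA libraries and at 44.8, 32.6 and 36.4 CPM in vehicle libraries. The BCAA libraries were nearly equal, while vehicle replicate 1 was far above vehicle replicate 2, which lay close to the BCAA libraries. These levels rested on 468, 496 and 407 counts in BCAA libraries and on 514 counts in vehicle replicate 2. The part of counting noise was not tested, so neither the near-equality nor the narrow gap is a separate result. The log2 fold change was -0.26 (SE 0.11, 95% interval -0.50 to -0.02; edgeR unadjusted p = 0.034, adjusted p = 0.37), and it was -0.12 without vehicle replicate 1 and -0.36 without vehicle replicate 2. The size of the Vcam1 difference thus rested on which vehicle library was kept.

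Among markers of other cell types, 2 summed levels were lower in every BCAA library than in every vehicle library. These were the sums of the smooth muscle and pericyte markers and, by a narrow gap, of the leukocyte markers. The 10 leukocyte markers in the table summed to 777 to 836 CPM in BCAA libraries and to 841 to 1006 CPM in vehicle libraries, most of it Lyz2, a lysozyme gene of myeloid cells (mean ± SD over 3 libraries, 622 ± 25.8 CPM in the BCAA group and 714 ± 85.1 CPM in the vehicle group). The T cell gene Cd3e was at 0 in every library, and 8 of the 10 markers were tested with none called. Of these 8, 5 were higher and 3 lower in sign with BCAA (median log2 fold change 0.06), and Cd14, a monocyte receptor, was at 100.1 CPM with BCAA on average, against 108 CPM with vehicle. The 8 smooth muscle and pericyte markers summed to 610.5 to 636 CPM with BCAA and 888 to 953 CPM with vehicle. Of the 7 tested, 2 (Tagln and Acta2) were called lower, where 0.228% of all genes tested were called in either direction. The intermediate filament gene Des averaged 29.2 CPM with BCAA and 33.0 CPM with vehicle. The 9 endothelial markers summed to 24.9 to 26.8 CPM with BCAA and 24.1 to 31.4 CPM with vehicle, so the groups overlapped. In bulk RNA, fewer cells of a type and less RNA per cell cannot be told apart, and the part of these markers in the adhesion gene values was not tested.

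Among the subunits, Nfkb1 encodes the precursor of the small subunit of the classical dimer. Nfkb1 was at 349, 359 and 351 CPM in BCAA libraries, against 376, 404 and 393 CPM in vehicle libraries, with no overlap. The level was 9.64% lower with BCAA (log2 fold change -0.15, SE 0.06, 95% interval -0.27 to -0.02; edgeR unadjusted p = 0.028, adjusted p = 0.35). Rela encodes the transactivating subunit that pairs with it. Rela was at 157, 161 and 162 CPM in BCAA libraries and at 154, 161 and 160.0 CPM in vehicle libraries, so the ranges nearly coincided. Its log2 fold change was 0.02 (SE 0.06, 95% interval -0.12 to 0.15; edgeR adjusted p = 0.94). The difference between the changes of these partner genes was not tested.

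Nfkb2 and Relb encode the dimer of the non-canonical branch, which is driven by receptors such as the lymphotoxin beta receptor and CD40. Nfkb2 was at 249.5, 259 and 248 CPM in BCAA libraries and at 234, 273 and 275 CPM in vehicle libraries. Relb was at 75.7, 80.8 and 81.9 CPM in BCAA libraries and at 76.6, 93.8 and 82.5 CPM in vehicle libraries. In both genes the BCAA libraries fell inside or beside the range of the vehicle libraries, whose replicate 1 was the lowest of its group. The log2 fold changes were -0.05 (SE 0.07, 95% interval -0.20 to 0.11) for Nfkb2 and -0.09 (SE 0.08, 95% interval -0.26 to 0.09) for Relb. These values depended on single libraries and ran from -0.11 without vehicle replicate 1 to -0.01 without vehicle replicate 3 for Nfkb2, and from -0.15 without vehicle replicate 1 to -0.0027 without vehicle replicate 2 for Relb.

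Nfkbia encodes the inhibitor IkB-alpha, the fast feedback product that takes NF-kB dimers back out of the nucleus. Its level was 307, 327 and 302 CPM in BCAA libraries, against 319, 355 and 345 CPM in vehicle libraries. The groups overlapped through BCAA replicate 2, the highest of its group, and vehicle replicate 1, the lowest of its group. The log2 fold change was -0.12 (SE 0.06, 95% interval -0.26 to 0.02; edgeR unadjusted p = 0.082, adjusted p = 0.49). Nfkbie, the gene of the related inhibitor IkB-epsilon, was at 38.5, 42.0 and 36.1 CPM in BCAA libraries and at 38.7, 42.5 and 46.7 CPM in vehicle libraries, and its groups overlapped too (log2 fold change -0.13, SE 0.10, 95% interval -0.34 to 0.07). The Nfkbie change was -0.06 without vehicle replicate 3 and -0.19 without BCAA replicate 2.

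Tnfaip3 encodes a ubiquitin-editing enzyme that shuts off signalling above the IkB kinases. It was at 74.3, 67.7 and 64.3 CPM in BCAA libraries and at 73.8, 75.0 and 86.3 CPM in vehicle libraries. BCAA replicate 1 lay just above vehicle replicate 1, so the groups overlapped. The log2 fold change was -0.19 (SE 0.08, 95% interval -0.37 to -0.01; edgeR unadjusted p = 0.045, adjusted p = 0.41). It was -0.11 without vehicle replicate 3, the highest of its group, and -0.25 without BCAA replicate 1. Birc3, which encodes a ubiquitin ligase of the receptor complexes and an inhibitor of apoptosis, was at 73.3, 69.9 and 76.6 CPM in BCAA libraries and at 76.7, 70.0 and 70.1 CPM in vehicle libraries. It showed no order between the groups (log2 fold change 0.02, SE 0.07, 95% interval -0.14 to 0.18), and its sign turned without BCAA replicate 3 and without vehicle replicate 2 or 3.

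**Figure D2:**
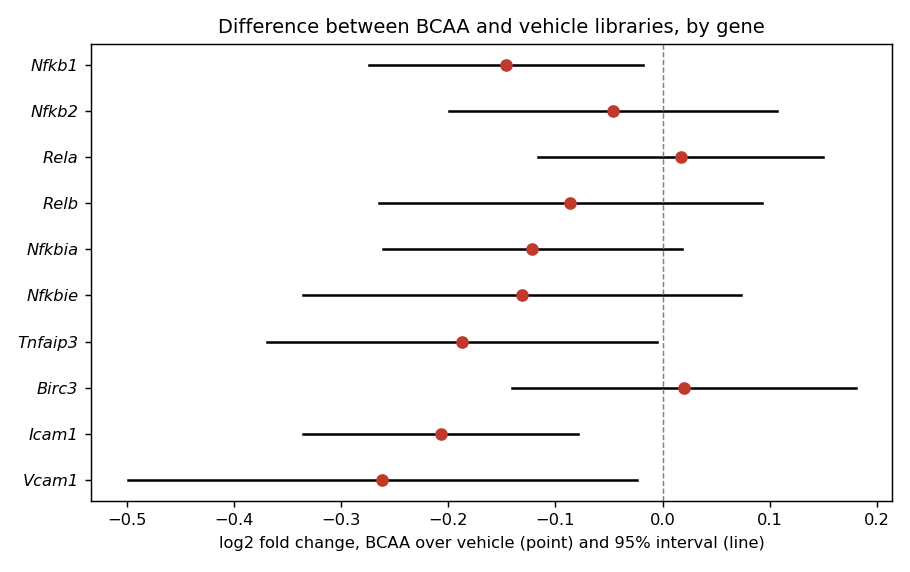
Log2 fold change of each gene, BCAA over vehicle (horizontal axis; points), with its 95% interval (lines) from edgeR's fit to all 6 libraries, before adjustment for multiple testing. The intervals of Icam1, Nfkb1, Vcam1 and Tnfaip3 lay below 0, and those of the other 6 genes held 0.

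The 10 genes varied more among vehicle libraries than among BCAA libraries. The coefficient of variation (SD over mean) ran from 0.694% to 7.66% in the BCAA group and from 2.40% to 16.5% in the vehicle group. Both the 0.694% and the 16.5% were those of Vcam1, a gene of few counts. The coefficient was larger in the vehicle group for each of the 10 genes (59.6% of all genes tested). Vehicle replicate 1 was the lowest of the vehicle libraries for 8 of the 10 genes, and the highest for the other two, Vcam1 and Birc3.

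Without vehicle replicate 1, 8 of the 10 genes had no overlap between the groups, each lower with BCAA (17.5% of all genes), and 7 had an unadjusted p under 0.05 (9.46% of all genes were lower at that p). Icam1 then passed the threshold (log2 fold change -0.24, SE 0.05, edgeR adjusted p = 0.0079), as 4.07% of all genes did. Nfkb1 had an edgeR adjusted p of 0.056 and Nfkbia one of 0.086, with log2 fold changes of -0.17 and -0.16. Leaving out a vehicle library that was low for most of these genes raises the vehicle mean by construction, and leaving out any of the other 5 libraries gave no call among the 10. Over the alternatives tried, the edgeR or DESeq2 adjusted p of Icam1 ran from 0.0079 to 0.47.

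**Figure D3:**
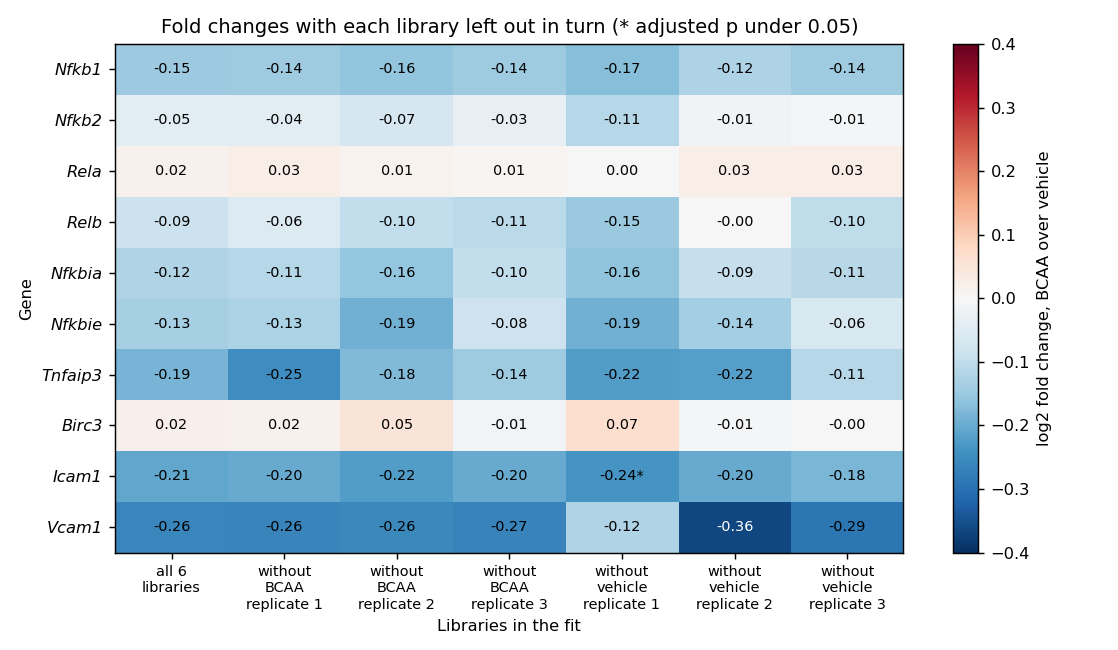
Log2 fold change (BCAA over vehicle; colour and printed value) of each gene (rows) with all 6 libraries and with each library left out in turn (columns), with asterisks for an edgeR adjusted p under 0.05. Icam1 and Nfkb1 kept a similar negative value in every column, Vcam1 ran from -0.36 to -0.12, and the single asterisk is that of Icam1 without vehicle replicate 1.

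The other genes of the pathway, from 8 lists with 102 symbols, showed no common direction. Of 92 tested, 47 were higher and 45 lower in sign (median log2 fold change 0.02). None was called higher and 1 was called lower (1.09%, beside 0.228% of all genes called in either direction). The 1 was the soluble pattern recognition gene Ptx3 (log2 fold change -0.56, SE 0.06, edgeR adjusted p = 0.00067). DESeq2 called 4 (4.35%, beside 1.03% of all genes), adding the chemokine genes Cxcl10 and Ccl5, both higher, and Mcam, lower. Without vehicle replicate 1, 9 were called (9.78%, beside 4.07% of all genes), 5 higher and 4 lower.

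Other Rel and IkB family genes numbered 7, with none called (median log2 fold change 0.00). Nfkbib encodes IkB-beta, a further cytoplasmic inhibitor. It was at 112, 122 and 119.5 CPM in BCAA libraries and at 132, 151 and 140.3 CPM in vehicle libraries, without overlap (log2 fold change -0.26, SE 0.07, edgeR adjusted p = 0.16). For Nfkbid, at 1.79 CPM in the BCAA group and 1.33 CPM in the vehicle group on average, the log2 fold change was 0.42 (SE 0.31). Of 11 other negative regulators none was called (median 0.04). Tnip1, which encodes a partner protein of the Tnfaip3 product, was at 414, 447 and 433 CPM in BCAA libraries and at 486, 534 and 508 CPM in vehicle libraries (log2 fold change -0.24, SE 0.06, edgeR adjusted p = 0.14). Its groups did not overlap, and Nfkbib and Tnip1 were both called lower without vehicle replicate 1. For Tnip2 the change was 0.23 (SE 0.12).

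The genes above the IkB proteins were mixed in sign. At an unadjusted edgeR p under 0.05, 1 of 10 receptors and 2 of 18 adaptors and ubiquitin ligases were higher with BCAA. So were 3 of 10 IkB kinases and activators, and none of these lists had a gene lower at that p. Over all 8 lists 9 genes were higher and 7 lower at that p, and over all 12298 genes 732 and 718. Of 10 receptors none was called (median 0.07). Tnfrsf1b encodes the second TNF receptor. It was at 110.4, 102 and 100.4 CPM in BCAA libraries and at 86.9, 89.6 and 88.0 CPM in vehicle libraries, without overlap (log2 fold change 0.24, SE 0.07, edgeR adjusted p = 0.16). Cd40 had 0.22 (SE 0.13). Of 18 adaptors and ubiquitin ligases none was called and 13 were lower in sign (median -0.05). Traf1 encodes an adaptor of TNF receptors and is itself an NF-kB target. Traf1 was at 36.6, 37.7 and 39.5 CPM in BCAA libraries and at 30.7, 30.6 and 29.5 CPM in vehicle libraries (log2 fold change 0.32, SE 0.09, edgeR adjusted p = 0.14). For Traf6, an adaptor of the interleukin 1 and Toll-like receptors, it was 0.35 (SE 0.12).

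Of 10 IkB kinases and activators none was called and 8 were higher in sign (median 0.08). Tbk1, a kinase related to the IkB kinases, had a log2 fold change of 0.23 (SE 0.08), and Ikbkg, the scaffold subunit of the IkB kinase complex, one of 0.34 (SE 0.13). Without vehicle replicate 1, Tnfrsf1b, Traf1 and Tbk1 were called higher. The groups did not overlap for Traf6, Tbk1 and Ikbkg either. Genes named from each pathway list are those with the smallest p, so lack of overlap in them is no separate result.

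Of 23 other classical NF-kB targets, 11 were higher and 12 lower in sign (median -0.02), and Ptx3 was the called one. Ptx3 was at 273, 284 and 270.4 CPM in BCAA libraries and at 387, 422 and 415 CPM in vehicle libraries. Cxcl10, a chemokine gene induced by interferon as well as by NF-kB, was at 25.1, 28.5 and 28.1 CPM in BCAA libraries and at 22.1, 16.3 and 15.5 CPM in vehicle libraries (edgeR adjusted p = 0.071). The groups did not overlap for either gene, and they lay in opposite directions. At an unadjusted edgeR p under 0.05, 4 of the 23 targets were lower with BCAA and 2 were higher (718 and 732 of all 12298 genes). Of 9 other adhesion molecules none was called (median -0.05), with Mcam at a log2 fold change of -0.33 (SE 0.08, edgeR adjusted p = 0.10) and Jam3 at 0.18 (SE 0.08). Of 4 integrin partners of the adhesion molecules none was called (median 0.00). Itgb2, the leukocyte beta-2 integrin chain to which ICAM1 binds, had a log2 fold change of 0.03 (SE 0.09), and Itgal, at about 1 CPM, had -0.23 (SE 0.41).

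**Figure D4:**
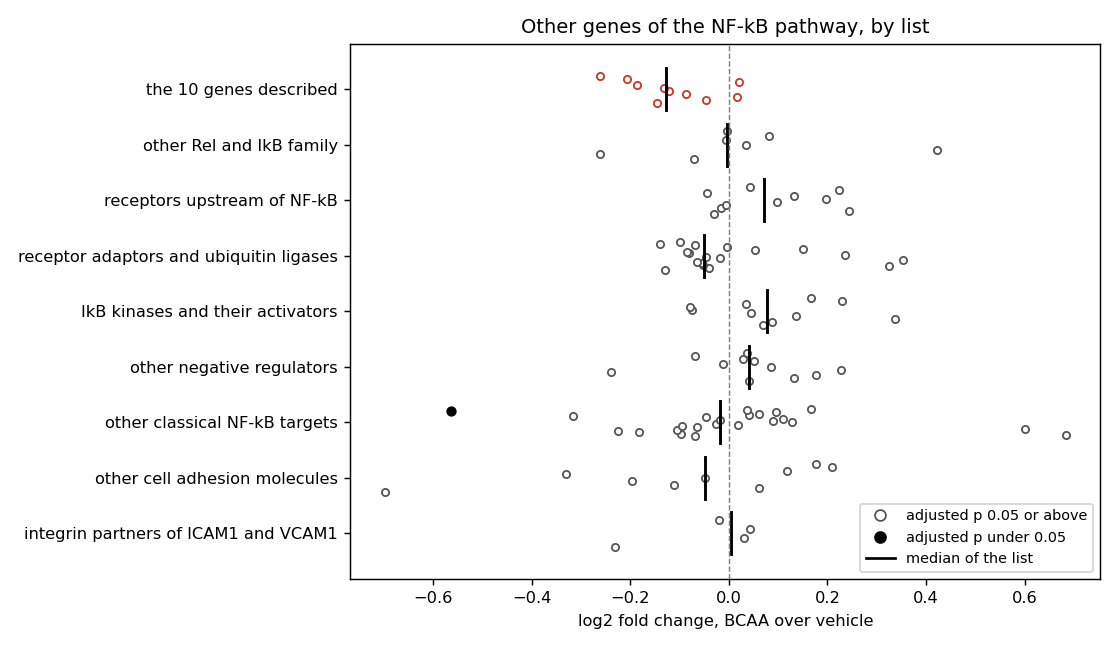
Log2 fold changes (BCAA over vehicle, horizontal axis) of the 10 genes described and of the tested genes of each of 8 pathway lists (rows), with filled points for an adjusted p under 0.05 and bars for list medians. The one filled point is Ptx3, and the medians lay between -0.13 for the 10 genes and 0.08 for the IkB kinases.

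For Icam1 and Nfkbia, the 3 genes whose levels followed theirs most closely over the 6 libraries are given as a description. The pathway lists held only 92 of the 12298 genes tested, so nearest genes from outside them are no result about the pathway. By the mean absolute difference of log2 CPM, centred on each gene's mean over the libraries, the nearest to Icam1 among genes of at least 10 CPM were Kifap3 (0.0154), Bckdha (0.0155), which encodes part of the enzyme complex that commits BCAA to breakdown, and Gldn (0.0175). The nearest to Nfkbia were Klhl2 (0.00871), Os9 (0.00952) and Sdf2 (0.0139). None of these 6 genes was called (edgeR adjusted p from 0.35 to 0.60).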

How the data were processed

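The authors deposited unnormalized read counts by gene symbol, with a column for each of the 6 libraries. The submitters' processing notes list Trimmomatic, FastQC, STAR, HTSeq and rn6. Tool versions, the annotation and whether counting used strand were not given in the sources used here, so reads from a gene and an antisense partner cannot be told apart. In the RefSeq table of GRCr8, 1 of the 10 genes, Birc3, overlaps another gene, a pseudogene.

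Columns were matched to library titles. Chi-square per degree of freedom over genes with at least 10 counts was 2.65 to 18.1 over the 15 library pairs, so no library was a copy of another. The main test was edgeR 4.0.16 (R 4.3.3): filterByExpr (minimum count 10, minimum total 15; 12298 genes, 99.9% of counts), TMM scaling, robust quasi-likelihood fit with group as the only term, Benjamini-Hochberg adjustment over all genes tested, threshold 0.05. CPM use TMM-scaled library sizes. The SE is the size of the log2 fold change over the square root of F, and 95% intervals use the t distribution of the fit. CPM are not divided by transcript length, so levels of different genes were not compared. Alternatives were DESeq2 1.42.0, RLE scaling, no scaling factors, no low-count filter, the replicate number as a block and each library left out. The fit was tested on simulated data whose changes were larger than those of the 10 genes in the main test. Recovery of changes as small as theirs was not examined.

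The members and lists were chosen with earlier results of these data known. Of the 102 symbols of the pathway lists, 99 were found, 1 of them under a synonym listed in RefSeq, and 92 passed the filter on low counts. Those not found were not analysed here. Named are the 10 genes; of each pathway list the called genes and the 2 with the smallest p; of each marker list the 2 with the highest mean CPM; and the 3 genes nearest to Icam1 and to Nfkbia. Acta2, Cdh5, Vwf, Cd3e and Ccl5 were named after their values were seen.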

Additional observations from a re-analysis of the deposited data

How the results depend on the processing

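Of the 110 values of the 10 genes under 11 alternatives, 106 kept their direction and their side of the threshold. The exceptions were Birc3, whose sign turned, with log2 fold changes from -0.0124 to 0.0679 as each library was left out, and Icam1, which ran from -0.24 to -0.18 and was called without vehicle replicate 1. The number of all genes called was 28, against 127 with DESeq2, 124 when low counts were not filtered, 6 with the replicate number as a block, and 7 to 500 with a library left out. Among the 10 genes 0 or 1 was called with a library left out, the 1 being without vehicle replicate 1 (4.07% of all genes). Groups did not overlap for 3 with all 6 libraries (8.76% of all genes) and for 8 without vehicle replicate 1 (17.5%), each lower with BCAA. A group of 2 libraries overlaps less readily by construction, and shares for the other fits are not given here. Of the pathway lists 1 gene was called (1.09%, beside 0.228% of all genes), and 4 with DESeq2 (4.35%, beside 1.03%). It was 3 when low counts were not filtered (3.26%) and 1 to 9 with a library left out. The share of all genes called without that filter is not given here. Without scaling factors Nfkb1 overlapped between the groups, while Icam1 and Vcam1 still did not. The cause of these shifts was not tested. Library totals were alike between equal replicate numbers, at 14482260 (BCAA) and 14484051 (vehicle) counts for number 1. They were 15654060 and 15739731 for number 2, and 12802663 and 12725344 for number 3. Gene levels of equal numbers did not deviate together (r = -0.066, 0.11 and -0.15 for numbers 1, 2 and 3). The replicate block called none of the 10, and the labels do not say whether equal numbers mark a shared batch. Each of the 10 genes had at least 407 counts per library; whether depth or the number of libraries limited the calls was not tested.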
